A study of Homo sapiens with 8 samples.

Results

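Immediate early genes outside the AP-1 family were examined in HepG2, an established human hepatic cell line. The list held 10 genes, and 9 of them were among the 17561 genes of the expression table: EGR1, EGR3, IER2, IER5, NR4A1, KLF4, KLF6, MYC and PIM1. IER3 was not analysed here. The genes were chosen by their names from a list drawn up with the pGRHL2 against pcDNA3 differences of these libraries already known. That contrast is therefore a description for them: no p-value is given, and where the fit across all genes called one of them, this is stated as a count from which nothing is read. Cells transfected with pGRHL2 received a plasmid encoding flag-tagged GRHL2 behind an EEF1A1 promoter, together with enhanced green fluorescent protein from the same bicistronic construct. Control cells received the pcDNA3 vector. All cells were grown in William's E medium with 10% serum, insulin and 50 nM dexamethasone, a glucocorticoid, the medium was renewed a day before harvest, and RNA was collected 48 h after transfection for 4 libraries per plasmid, numbered 1 to 4. Both arms carried a plasmid, so that a cell without transfection was not part of the comparison, and GRHL2, the fluorescent protein and the promoter cannot be told apart.

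Immediate early genes are switched on within minutes of a stimulus such as serum, growth factors or stress, without prior protein synthesis. Signals through the MAPK cascade reach SRF with its ELK partners, which bind CArG boxes, and CREB, which binds sites built around TGACG. The products fall into transcription factors (EGR, NR4A, KLF and MYC), short nuclear regulators (IER) and kinases (PIM). Their mRNAs are unstable, and in liver they are known to rise early in regeneration.

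Values are on a log2 scale and are given relative to transcript length, so that levels can be set beside each other between genes. GRHL2 itself lay between 16.22 and 16.87 in the pGRHL2 libraries and between 6.61 and 7.25 in the pcDNA3 libraries. The median over all genes was 6.71 to 6.73 per library. By RT-qPCR, another measure, the study found GRHL2 low or undetectable in its cell lines under basal conditions. What the processing of the values does to the pcDNA3 level of GRHL2 was not tested. The hepatocyte genes ALB, AFP, APOA1, APOB, TTR, SERPINA1 and HNF4A were all present, from 9.56 for the lowest TTR value to 17.27 for the highest AFP value. Of 6 markers of leukocytes, endothelial cells, fibroblasts and muscle, only PECAM1 (5.37 to 5.49) and COL1A1 (5.66 to 5.99) had values in the table. Within each gene, averaging the libraries that share a number gave an identical mean for all 4 numbers, so the values of a pair mirror each other: a library that stood out in one arm appears as an opposite shift in the other arm. The same-numbered libraries were treated as 4 pairs, and the log2 FC of a gene is its mean pair difference (pGRHL2 minus pcDNA3) ± SD over the 4 pairs. Read depth is unknown, since the table holds no counts.

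Of the 9 genes, 1 was lower in pGRHL2 in all 4 pairs (PIM1), 1 was higher in all 4 pairs (NR4A1) and 7 differed in sign between pairs. Over all 17561 genes, 10.5% were lower and 13.4% were higher in all 4 pairs, which in these data is the same as groups that do not overlap. By limma at an adjusted p under 0.05, 1 of the 9 genes was called lower and 0 were called higher, whereas 0.501% of all genes were called lower and 1.69% higher. At an unadjusted p under 0.05 there were 2 of the 9, compared with 2802 of all genes (16%). The median log2 FC of the 9 genes was -0.032, close to the 0.002 of all genes, and single genes ranged from -0.37 for PIM1 to 0.15 for NR4A1. These are values of mixed cultures, in which a smaller share of cells carrying a transcript and less of it per cell cannot be told apart.

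**Figure D1:**
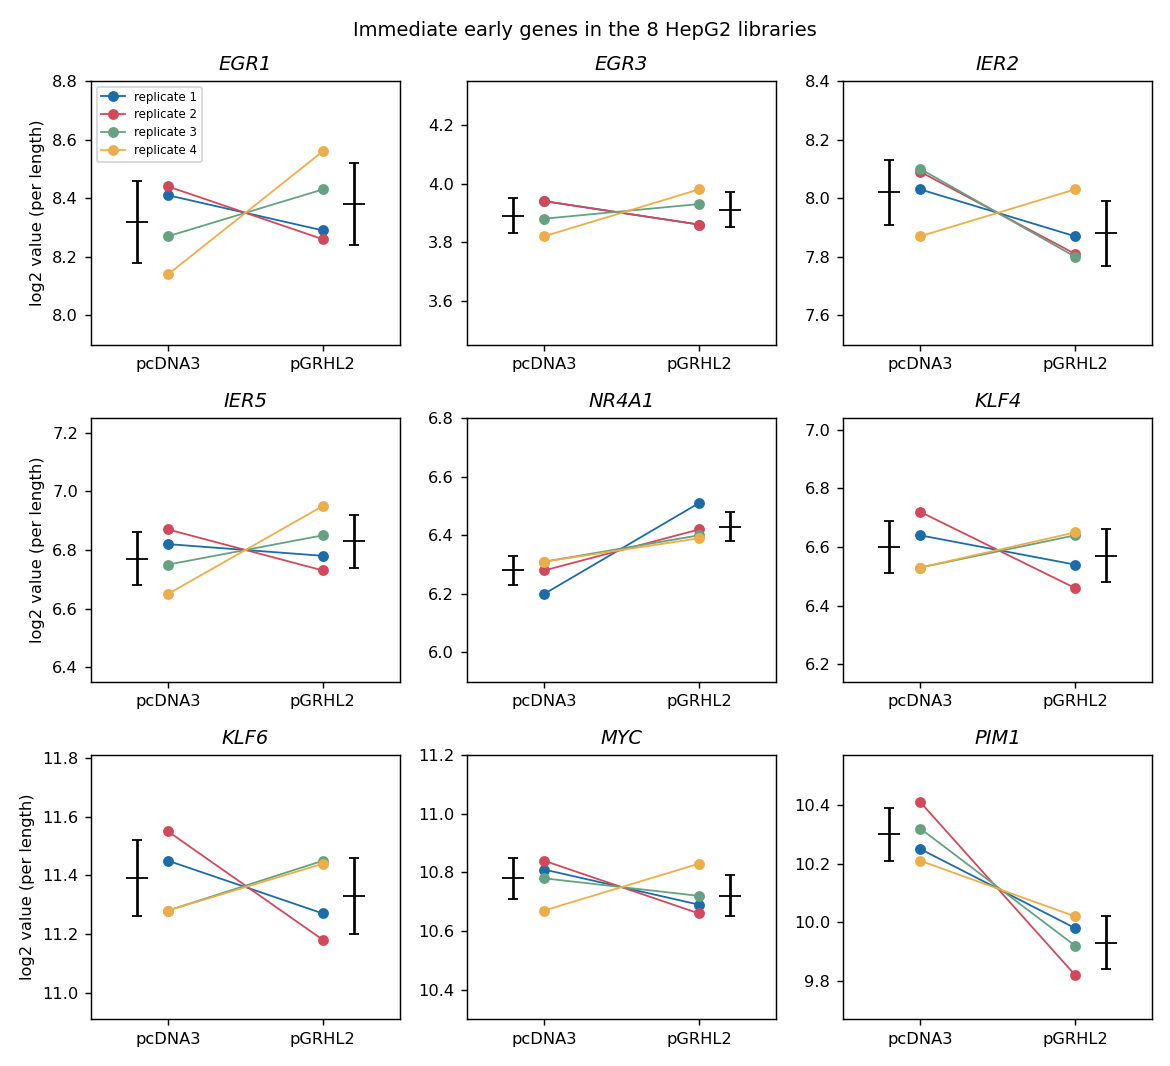
Log2 values (relative to transcript length) of the 9 genes in pcDNA3 and pGRHL2 libraries, with lines joining libraries of the same replicate number and black bars for mean ± SD (n = 4 per plasmid). Each panel spans the same height; PIM1 has all pGRHL2 values (9.82 to 10.02) under all pcDNA3 values (10.21 to 10.41), NR4A1 shows the opposite, and the lines of the other genes cross.

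PIM1 encodes a short-lived serine/threonine kinase that promotes survival and cell growth and is induced through cytokine and growth factor signals. Its values were 9.98, 9.82, 9.92 and 10.02 in pGRHL2 libraries 1 to 4, and 10.25, 10.41, 10.32 and 10.21 in the pcDNA3 libraries of the same numbers. The groups did not overlap, and the gap was widest in pair 2. The log2 FC was -0.37 ± 0.18 (SD, n = 4 pairs), so that its level fell by 22.4% on the linear scale. PIM1 was the gene counted as lower by the fit to all 4 pairs. It was not counted when any pair was left out, with a log2 FC of -0.39, -0.29, -0.35 and -0.42 without replicates 1, 2, 3 and 4. PIM3, the paralogue of the same kinase family, fell as well: PIM3 stood at -0.38 ± 0.09 on the log2 scale (limma adjusted p of 0.016), it was lower in 4 of 4 pairs, and the call was lost without replicate 1, 2 or 3 (log2 FC of -0.37, -0.34 and -0.39). PIM2 had pair differences of -0.16, 0.03, -0.16 and 0.24 and was not called (log2 FC -0.01 ± 0.19 by limma, adjusted p of 0.970). Whether PIM2 differed from PIM1 and PIM3 was not tested.

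The bases before the PIM1 start are shown because PIM1 is the gene of the 9 that was lower in all 4 pairs. This stretch is chr6:37170052-37170151 on the plus strand (RefSeq, GRCh38.p14), from position -100 to -1, with +1 as the first transcribed base. No base is in capitals, since none of the motifs searched matched in the PIM1 window of 250 bases before and 50 bases from the start on.
PIM1: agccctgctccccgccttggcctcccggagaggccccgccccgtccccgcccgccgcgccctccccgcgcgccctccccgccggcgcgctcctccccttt

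NR4A1 (NUR77) is an orphan nuclear receptor that binds DNA without a known natural ligand. Its values were 6.51, 6.42, 6.40 and 6.39 in pGRHL2 libraries 1 to 4 and 6.20, 6.28, 6.31 and 6.31 in the pcDNA3 libraries. All pGRHL2 values lay above all pcDNA3 values, but by little except in pair 1. The log2 FC was 0.15 ± 0.11 and ranged from 0.10 to 0.18 as each pair was left out, lowest without replicate 1. NR4A1 shared 10.3% of its exon bases with its antisense gene NR4A1AS. Without strand, reads in those bases cannot be assigned to either gene, and what this does to the NR4A1 value was not tested. The other family receptors were at lower levels. NR4A2 was higher in 4 of 4 pairs (log2 FC 0.11 ± 0.08 by limma, adjusted p of 0.113) and NR4A3 in 3 of 4 pairs (0.08 ± 0.16, limma adjusted p of 0.543), and neither was called.

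NR4A1 has 2 starts in the RefSeq promoter table. Just after the second start, at chr12:52037723-52037752 (plus strand, GRCh38.p14, positions 9 to 38), lies AACCGGTT, the palindrome that Grainyhead proteins such as GRHL2 are known to bind. It is shown in capitals because 47 of 35116 promoter windows of this length (0.134%) hold it on either strand. None of the other windows searched held it, and these covered 7 of the 9 genes. The motif AACCNGTT, which includes it, was found in 1.73% of windows. Gene-level values do not separate the 2 starts, and a match of letters is not evidence of binding.
NR4A1: ccggctgcgggAACCGGTTccaggagcgcg

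EGR1 and EGR3 are zinc finger transcription factors, and EGR1 is the classical serum-induced immediate early gene. EGR1 had values of 8.29, 8.26, 8.43 and 8.56 in pGRHL2 libraries 1 to 4 and of 8.41, 8.44, 8.27 and 8.14 in the pcDNA3 libraries. It was lower in pairs 1 and 2 and higher in pairs 3 and 4, so that the groups overlapped. The log2 FC of 0.07 ± 0.27 was smaller than the spread between pairs, and was -0.05 without replicate 4. EGR3 was the lowest of the 9 genes, with 3.86, 3.86, 3.93 and 3.98 in pGRHL2 and 3.94, 3.94, 3.88 and 3.82 in pcDNA3 (log2 FC of 0.01 ± 0.12, and -0.04 without replicate 4). The pair differences of EGR3 followed the same order as those of EGR1, over a range of 0.25 in place of 0.60. EGR3 lay below PECAM1 (5.37 to 5.49) and COL1A1 (5.66 to 5.99), markers of other cell types. Whether so low a level carries a reliable order was not tested. EGR2 was higher in 4 of 4 pairs without being called (log2 FC 0.19 ± 0.11 by limma, adjusted p of 0.091), while EGR4 was at -0.03 ± 0.06 (limma adjusted p of 0.756). NAB2, a corepressor of EGR proteins whose own gene EGR1 activates, was lower in 4 of 4 pairs without being called (-0.21 ± 0.05, limma adjusted p of 0.097), and NAB1 had -0.14 ± 0.18 (limma adjusted p of 0.417).

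The EGR1 promoter carries the serum response elements through which SRF acts. Letters were read at chr5:138465334-138465433 (plus strand, GRCh38.p14, positions -145 to -46). Capitals mark 2 CArG boxes (CC, then 6 bases A or T, then GG), at -105 and -83, and 2 copies of TGACG on the opposite strand, read here as CGTCA. The stretch is shown because EGR1 was the only gene with a CArG box among the 7 whose windows were searched, compared with 1.29% of all windows.
EGR1: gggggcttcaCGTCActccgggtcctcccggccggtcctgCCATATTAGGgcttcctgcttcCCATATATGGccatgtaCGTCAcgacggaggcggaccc

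KLF4 and KLF6 are Krüppel-like zinc finger factors that bind GC-rich promoter sites. KLF6 had the highest level of the 9 genes. Its values were 11.27, 11.18, 11.45 and 11.44 in pGRHL2 libraries 1 to 4 and 11.45, 11.55, 11.28 and 11.28 in the pcDNA3 libraries. Pairs 1 and 2 were lower in pGRHL2 and pairs 3 and 4 were higher, which left a log2 FC of -0.06 ± 0.27 (0.05 without replicate 2). KLF4 had 6.54, 6.46, 6.64 and 6.65 in pGRHL2 and 6.64, 6.72, 6.53 and 6.53 in pcDNA3, with a log2 FC of -0.03 ± 0.18 (0.04 without replicate 2). The order of its pairs was close to that of KLF6, so that both genes shared a profile although their levels were far apart. KLF4 shared 9.75% of its exon bases with an unnamed gene.

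Of the relatives called lower, KLF10 and KLF11 were Krüppel-like factors. KLF10, an early response gene of TGF-β signaling, was at -0.64 ± 0.27 (limma adjusted p of 0.014), with pair differences of -0.91, -0.84, -0.47 and -0.35. KLF11, its closest paralogue, had -0.36 ± 0.05 (limma adjusted p of 0.014), with pair differences between -0.41 and -0.30. Both fell, and both calls were lost without replicate 1, 2 or 3, where the log2 FC was -0.55, -0.57 and -0.70 for KLF10 and -0.35, -0.37 and -0.38 for KLF11. KLF7 and KLF15 were lower in 4 of 4 pairs without being called (-0.19 ± 0.10 and -0.15 ± 0.10, with limma adjusted p of 0.119 and 0.146). KLF3 was higher in 4 of 4 pairs (0.09 ± 0.05, limma adjusted p of 0.498), and KLF5 changed sign in pair 4 (-0.09 ± 0.23, limma adjusted p of 0.705). The fall of KLF10 was known when the family list was drawn up and is not independent support.

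TGACG was found in 24.6% of all windows, and among the 7 genes searched in those of EGR1, KLF4 and IER2. Capitals mark it below, read as CGTCA on the printed strand, to show where these genes carry it relative to the start. The KLF4 stretch is chr9:107489960-107490019 on the minus strand (positions -250 to -191) and the IER2 stretch chr19:13150261-13150285 on the plus strand (positions -150 to -126), both GRCh38.p14.
KLF4: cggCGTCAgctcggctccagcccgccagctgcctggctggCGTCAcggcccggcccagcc
IER2: cccccgccccCGTCAcgccaccatc
The full site TGACGTCA (1.85% of windows), the EGR site GCGTGGGCG (0.795%) and TATAAA (11.5%) were not matched in any window of the 7 genes. This says only that those letters are not in these windows.

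MYC, the growth-promoting transcription factor that pairs with MAX, had values of 10.69, 10.66, 10.72 and 10.83 in pGRHL2 libraries 1 to 4. The pcDNA3 values were 10.81, 10.84, 10.78 and 10.67. It was lower in pairs 1 to 3 and higher in pair 4, with a log2 FC of -0.06 ± 0.15 that was smaller than the spread between pairs. Without replicate 4 the log2 FC was -0.13. MYCN and MYCL stood far lower, at mean levels of 0.04 and 2.98, and were not called (0.03 and 0.06 ± 0.03, with limma adjusted p of 0.230 and 0.239).

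IER2 and IER5 encode related short nuclear proteins that respond to growth factors. IER2 had values of 7.87, 7.81, 7.80 and 8.03 in pGRHL2 libraries 1 to 4 and of 8.03, 8.09, 8.10 and 7.87 in the pcDNA3 libraries. It was lower in pairs 1 to 3 and higher in pair 4, with a log2 FC of -0.14 ± 0.21, and -0.25 without replicate 4. Since 52.2% of the IER2 exon bases also belong to unnamed genes in GENCODE, its level is uncertain. IER5 had 6.78, 6.73, 6.85 and 6.95 in pGRHL2 and 6.82, 6.87, 6.75 and 6.65 in pcDNA3 (log2 FC of 0.05 ± 0.19, and -0.03 without replicate 4). The related IER5L differed in sign between pairs (-0.06 ± 0.20, limma adjusted p of 0.731).

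**Figure D2:**
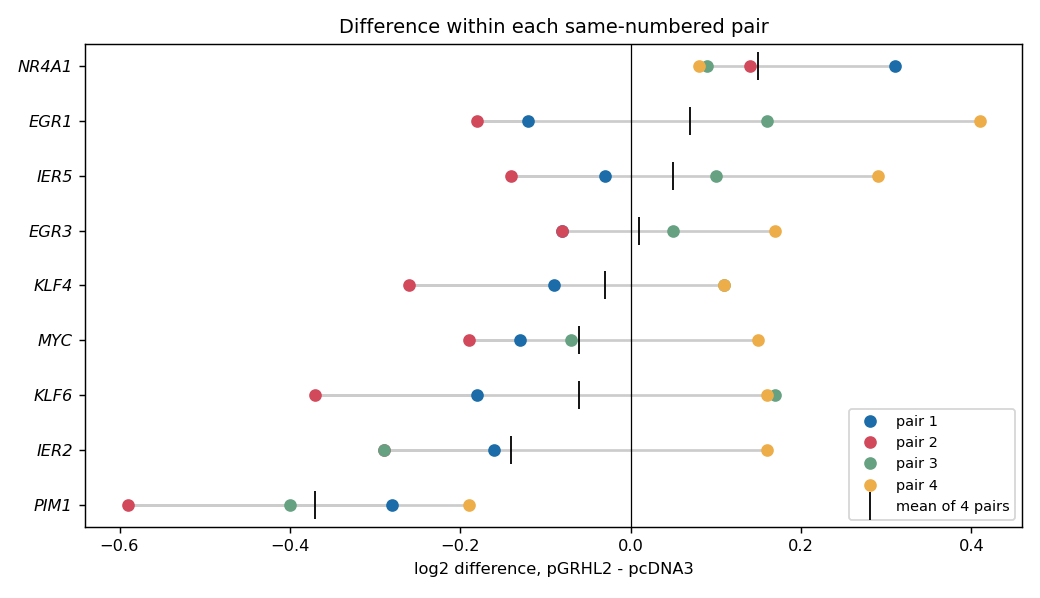
Log2 difference (pGRHL2 minus pcDNA3) of each of the 9 genes in pairs 1 to 4, ordered by their mean (black tick); the points of pairs 2 and 3 coincide for IER2, those of pairs 1 and 2 for EGR3 and those of pairs 3 and 4 for KLF4. Pair 2 is the leftmost point in 7 genes and pair 4 the rightmost in 7 genes, and PIM1 and NR4A1 alone lie wholly on one side of 0.

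The pairs ranked in a similar order in most of these genes. The pGRHL2 value was lowest relative to pcDNA3 in pair 2 for 7 of the 9 genes (23.1% of all genes), and highest in pair 4 for 7 of the 9 (27% of all genes). Both held together in 6 genes (66.7%), compared with 9.38% of all genes and 10.9% of genes with a mean value of at least 5. This order was read off the 9 genes themselves, so their own share is a description and carries no test. The 9 genes come from the same 4 pairs and are not replicates. EGR3 (-0.08 in pairs 1 and 2) and KLF4 (0.11 in pairs 3 and 4) were counted through near ties. The same order was found in 10 of the 28 immediate early genes of other families (35.7%), in 3 of 7 AP-1 genes (42.9%) and in 3 of 11 MAPK feedback genes (27.3%). The shares were lower in family relatives (3 of 20, 15%) and in upstream factors and kinases (3 of 24, 12.5%). They were also lower in partner genes (1 of 11, 9.09%) and MYC targets (1 of 22, 4.55%). The median difference over the 9 genes was -0.119 in pair 1, -0.186 in pair 2, 0.086 in pair 3 and 0.157 in pair 4, whereas the median over all genes stayed between 0.001 and 0.006. NR4A1 stood apart from this order, with its highest value in pair 1. PIM1 kept the order at its ends, with every pair below 0. Over the 8 libraries, which are 4 mirrored pairs, Pearson r between members was at least 0.7 in 17 of 36 gene pairs and between -0.77 and -0.10 in 7, all of which involved NR4A1. The highest r was found for KLF4 with KLF6 (1.00) and for EGR1 with EGR3 and with IER5 (0.99 each). These coefficients describe 4 differences per gene and are not independent of the libraries the genes share.

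The genes outside the list whose profile was most like the median of the 9 were CCDC50 (r = 0.998), RNF19B (0.993), SERINC1 (0.993), ABI1 (0.991) and STAM (0.990), among 10850 genes with a mean value of at least 5. Each had pairs 1 and 2 below 0 and pairs 3 and 4 above 0, with a log2 FC between -0.03 and -0.01. A profile of 4 differences is easily matched: 75 of the 10850 genes had an r of at least 0.95, and 95 were as strongly opposed to the profile.

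By level in pcDNA3 cells, the order was KLF6 (11.39 ± 0.13, SD, n = 4), MYC (10.78 ± 0.07), PIM1 (10.30 ± 0.09), EGR1 (8.32 ± 0.14), IER2 (8.02 ± 0.11), IER5 (6.77 ± 0.09), KLF4 (6.60 ± 0.09), NR4A1 (6.28 ± 0.05) and EGR3 (3.89 ± 0.06). KLF6, MYC and PIM1 stood high among all genes, at percentiles 96.4, 93.4 and 90.1, and EGR3 was at percentile 31.2. Neighbors in this order had separate ranges in the pcDNA3 libraries except IER5 and KLF4, whose ranges overlapped. These SDs are tied to the plasmid contrast by the mirrored values and are not a separate measure of culture variation.

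**Figure D3:**
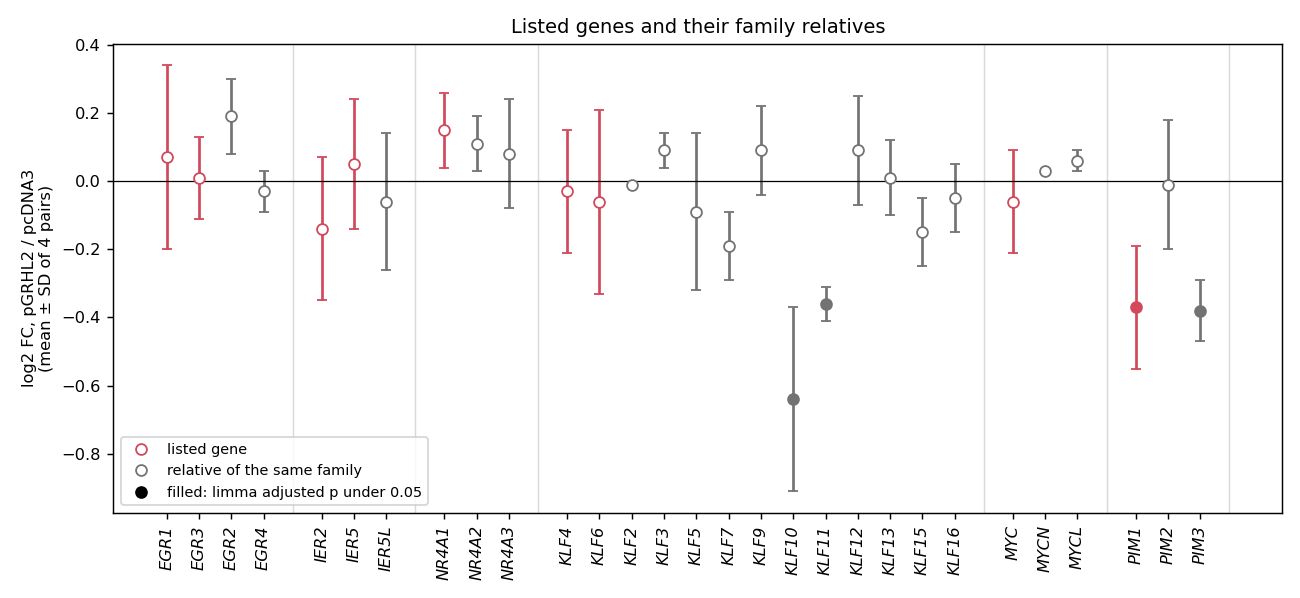
Log2 FC (mean ± SD of 4 pairs) of the 9 genes (red) and of 20 relatives from the same families (gray), with filled symbols for a limma adjusted p under 0.05. KLF10, KLF11, PIM1 and PIM3 are the filled symbols, all below 0, and KLF10 lies lowest at -0.64. The filled symbol of PIM1 is a description only, since its list was drawn up with this contrast known.

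The whole set of relatives was taken from the EGR, IER, NR4A, KLF, MYC and PIM families, of which 20 of 24 genes were in the table. Of these, 3 were called lower (KLF10, KLF11 and PIM3) and 0 higher, compared with 0.501% and 1.69% of all genes. An unadjusted p under 0.05 was found for 9 of them (16% of all genes). The median log2 FC of the 20 relatives was -0.009. In all 4 pairs, 5 were higher and 6 lower, where 13.4% and 10.5% of all genes were.

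Immediate early genes of other families were compared in the same way. Of 28 genes, 1 was called lower (SNAI1) and 0 were called higher, compared with 0.501% and 1.69% of all genes. In all 4 pairs, 6 were lower and 0 higher, where 10.5% and 13.4% of all genes were. The median log2 FC was -0.054. SNAI1, a zinc finger repressor of epithelial genes, fell as well (log2 FC -0.66 ± 0.30, limma adjusted p of 0.014), and its call was lost without replicate 1 (log2 FC of -0.68) or 2 (-0.68). It was known from earlier results when this list was drawn up. CSRNP1 (-0.31 ± 0.14, limma adjusted p of 0.052), GADD45B (-0.41 ± 0.27, limma adjusted p of 0.066), HES1 (-0.35 ± 0.22, limma adjusted p of 0.072) and PPP1R15A (-0.42 ± 0.36, limma adjusted p of 0.109) were lower in 4 of 4 pairs and were not called. They were named here after their values were seen. At an unadjusted p under 0.05 there were 5 of the 28 genes, a share close to the 16% of all genes.

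AP-1, the FOS and JUN dimer that is induced together with these genes, had 3 members called lower, whereas 0.501% of all genes were. Like the other lists, it was chosen with earlier results of these data known. FOSB (log2 FC -0.54 ± 0.20 by limma, adjusted p of 0.0086), FOS (-0.44 ± 0.25, limma adjusted p of 0.045) and JUNB (-0.39 ± 0.20, limma adjusted p of 0.042) were called out of 7 family genes, whose median log2 FC was -0.304. FOS and JUNB lost the call without replicate 1, 2 or 3, and FOSB without replicate 3, where log2 FC was -0.44, -0.44 and -0.34 for FOS, -0.38, -0.33 and -0.38 for JUNB and -0.51 for FOSB. AP-1 genes had their lowest pair in pair 2 in 5 of 7 genes, as did the 9 genes in 7, compared with 23.1% of all genes. The difference between both groups of genes was not tested, and they were measured in the same libraries. Feedback inhibitors of the MAPK cascade (DUSP, SPRY and SPRED genes) gave 0 calls in 11 genes, where 2 had an unadjusted p under 0.05 (16% of all genes did), and a median log2 FC of 0.015. Pair 2 was the lowest pair in 8 of these 11 genes, compared with 23.1% of all genes.

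The factors and kinases upstream of immediate early genes were compared last. Of 24 genes, 0 were called lower and 1 was called higher, compared with 0.501% and 1.69% of all genes. This was RPS6KA5 (MSK1, a kinase of CREB and histone H3), at 0.15 ± 0.04 on the log2 FC scale (limma adjusted p of 0.019). Its mean level was low, at 2.74. Its call was lost when any replicate was left out (log2 FC of 0.13 to 0.15). SRF stood at -0.15 ± 0.06 (limma adjusted p of 0.219), CREB1 at -0.11 ± 0.03 (limma adjusted p of 0.368) and ATF1 at -0.23 ± 0.03 (limma adjusted p of 0.065), each lower in 4 of 4 pairs and not called. They are given after their values were seen. The median of the list was -0.063, compared with -0.010 for genes with a mean value of at least 5.

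**Figure D4:**
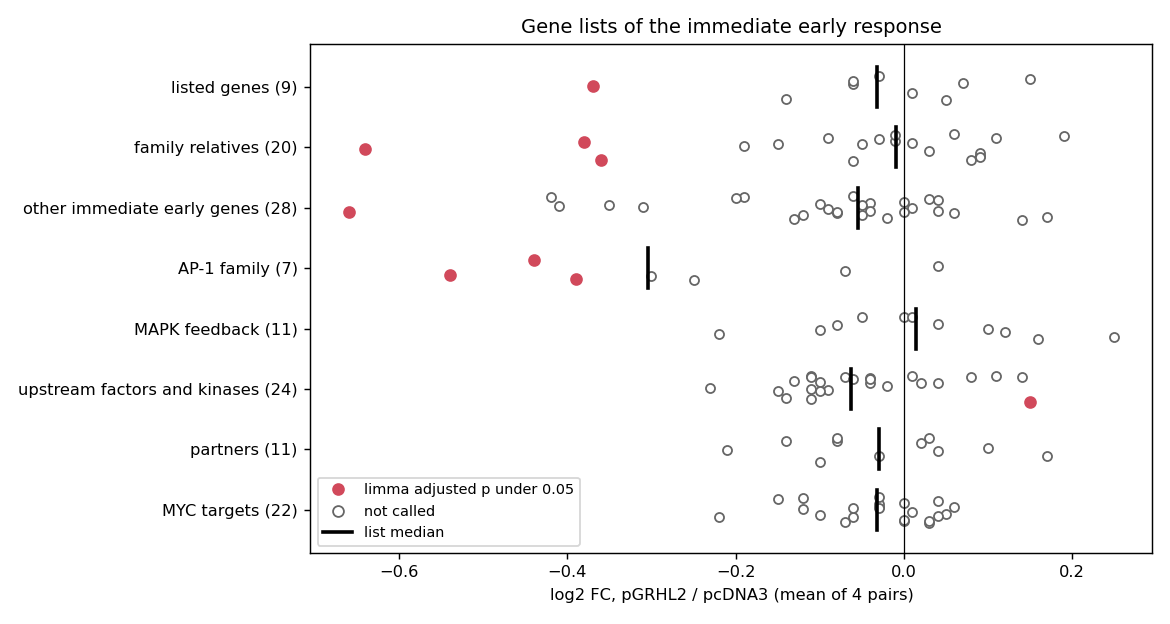
Log2 FC (mean of 4 pairs) of single genes by list, with the number of genes measured in parentheses; red points have a limma adjusted p under 0.05 and black bars are list medians. The AP-1 median (-0.304) lies left of the others, which are between -0.063 and 0.015, and called genes lie below 0 except RPS6KA5. The red point among the listed genes is PIM1 and is a description only.

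In hg38, the 9 genes lie on 8 chromosomes (GENCODE release 44). PIM1 spans 37170152 to 37175428 on chromosome 6, NR4A1 52022832 to 52059507 on chromosome 12, EGR1 138465479 to 138469303 on chromosome 5, IER2 13150411 to 13154911 on chromosome 19 and IER5 181088700 to 181092900 on chromosome 1, all on the plus strand. KLF4 spans 107484852 to 107490482 on chromosome 9 and KLF6 3775996 to 3785281 on chromosome 10, both on the minus strand. EGR3 (22687659 to 22693480, minus strand) and MYC (127735434 to 127742951, plus strand) lie on chromosome 8. EGR1, IER5, KLF6 and PIM1 shared 0% of their exon bases with other genes, MYC 3.18% (with CASC11) and EGR3 3.26%.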

How the data were processed

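RNA-seq libraries (4 per plasmid) were made from mRNA and sequenced in paired-end mode. The submitters' processing notes name hg38, HISAT2 2.2.1, HTSeq 0.9.1 and DESeq2 1.40.2. By the study's methods, the authors counted reads over exons without regard to strand, left out genes with hardly any reads, and set rlog values relative to mean transcript length. The deposited values are named FPKM but are on a log2 scale (3.71% below 0; a slope of -0.84 on log2 transcript length in 2371 genes with a range under 0.05). Rlog shrinks differences of weakly expressed genes, so their changes are understated. In 17561 of 17561 genes the mean of same-numbered libraries was identical for all numbers (within 1e-09), a step the methods do not describe. It forces the deviations of paired libraries to mirror each other and makes a correlation check of the pairing void. Known from earlier results, this led to a fit by limma 3.58.1 (R 4.3.3, eBayes with trend) across all genes with the replicate number as a block, Benjamini-Hochberg adjusted, at a threshold of 0.05, and was tested on simulated data. P-values measure the spread between the 4 pairs after each gene's variance was drawn toward that of genes at a similar level. They do not rest on a gene's own 4 pairs alone. The study calls its replicates independent, and the labels do not say how they were made. A stray character was removed from 1 value, and 0 columns belonged to other samples.

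The genes and all lists were chosen with earlier results of these data known. Genes were named if they were in the list of 10, called within a fixed list (at most 6 per list), or among the 5 closest profiles; family relatives, partners and upstream genes that were not called are given as examples chosen after their values were seen. Alternatives were no block, each replicate left out, robust eBayes, arrayWeights, other scalings, a filter on the mean and a stricter threshold. Promoter windows came from the RefSeq table (GRCh38.p14) and were searched for 7 of the 9 genes. EGR3 and MYC, on chromosome 8, were not searched. Motifs were searched on both strands: the CArG box, TGACGTCA, TGACG, which lies within it, GCGTGGGCG, TATAAA, AACCGGTT and AACCNGTT. Symbols matched GENCODE release 44 for 99.9% of genes.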

Additional observations from a re-analysis of the deposited data

Results flagged for a closer look

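Of 18 genes examined for a pair that stood far from the other 3, 1 had such a pair, where chance gives about 1 in 20. For RPS6KA5 this was pair 4, with a log2 difference of 0.20 where the remaining pairs lay between 0.12 and 0.14. Its mean level was 2.74, and the part of that low level in the result was not tested.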

How the results depend on the processing

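The values of the 9 genes moved by less than 1 SD of their pairs in 89 of 89 values under the alternatives run. This limit could hardly be passed: leaving out a pair cannot move the mean that far, and several fits leave it unchanged. The log2 FC of EGR1, EGR3, IER5, KLF4 and KLF6 changed sign when a single pair was left out. When the replicate block was dropped, limma gave 1821 higher genes, 1427 lower genes, 1 of the 9 genes higher (NR4A1), 5 relatives lower (KLF7 and KLF15 added), 5 relatives higher (EGR2, NR4A2, KLF3, MYCN and MYCL) and 5 other immediate early genes lower. These include all 385 calls of the blocked fit. Because pair means were removed, this fit counts 6 residual degrees of freedom where the block leaves 3. At an adjusted p under 0.01, 77 genes were higher and 10 lower, with 0 of the 9 genes, 0 relatives and 0 other immediate early genes lower. Leaving out each replicate in turn gave 79 to 156 higher and 8 to 68 lower genes, 0 to 0 of the 9 genes lower, 0 to 3 relatives and 0 to 3 other immediate early genes lower. These fits hold fewer pairs, and the causes of other changes were not tested. arrayWeights gave 503 higher and 221 lower genes, and 5 other immediate early genes. Rescaling to the same total without GRHL2 gave 495 higher genes and moved the median log2 FC of all genes by 0.0135, a mean value of at least 5 left 63 higher genes, and this filter and robust eBayes called 2 other immediate early genes. The share of higher calls was 77.1%, but 43.8% under the filter on the mean, 56.1% without the block, and 90.8% and 91.3% without replicates 1 and 2. The median of the 9 genes was 0.046 without replicate 2 and -0.080 without replicate 4. Of 89 values for the other named genes, 67 kept the call, 22 lost it and 0 reversed. Counting depth is unknown and no detection limit was computed.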

Other observations

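Partners of EGR proteins (NAB1 and NAB2), of MYC and of the nuclear receptors showed no call in 11 genes. Of these, 2 (NAB2 and MAX) had an unadjusted p under 0.05, against 16% of all genes. MAX, the obligate partner of MYC, was higher in 4 of 4 pairs (log2 FC 0.17 ± 0.06 by limma, adjusted p of 0.183), and MXD1, MXD4, MXI1, MNT and MGA, which compete for MAX or repress through it, had log2 FC between -0.10 and 0.10. RXRA, a partner of NR4A1, stood at 0.02 ± 0.21 (limma adjusted p of 0.943).

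Genes that MYC is known to activate in ribosome production and growth gave 0 calls among 22, where 4 had an unadjusted p under 0.05 (16% of all genes did), and a median log2 FC of -0.032. RRS1 (log2 FC -0.22 ± 0.05 by limma, adjusted p of 0.085) and WDR43 (-0.15 ± 0.06, limma adjusted p of 0.157), both factors of ribosome assembly, were lower in 4 of 4 pairs. So were 8 of the 22 genes in all, compared with 10.5% of all genes and 1473 of the 10858 genes with a mean value of at least 5. NPM1 and NCL, at mean levels of 14.13 and 13.65, stood at -0.03 ± 0.07 and -0.07 ± 0.05 (with limma adjusted p of 0.751 and 0.399). The lowest pair was pair 4 in 11 of the 22 genes and pair 2 in 2, unlike MYC itself, which was highest in pair 4. Over all 17561 genes, pair 4 was lowest in 5050 and pair 2 in 4056.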
